A study of Mus musculus with 24 samples.

Results

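Matrix metalloproteinases (MMPs) and the inhibitor Timp1 were examined in mouse colorectal tumors and normal colorectal tissue. The rows of Mmp2, Mmp3, Mmp8, Mmp9, Mmp10, Mmp11, Mmp12, Mmp13, Mmp14 and Timp1 were taken by symbol from the expression tables, which gave 10 of 24346 genes. All animals had been given AOM/DSS, the carcinogen azoxymethane together with dextran sulfate sodium, a polymer that injures the colon lining and causes colitis; no untreated tissue was part of the data used here. Tumor libraries came from 4 WT-young, 1 WT-old, 3 KO-8-homo, 3 KO-8-hetero and 3 KO-1-hetero samples, and each of these 5 kinds also had 2 normal libraries. KO stands for a knockout of c-MAF (gene Maf), hetero and homo for the zygosity word and young and old for the age word in the sample titles. The numbers 1 and 8 are not explained there, and neither the allele, any Cre driver, the sex, the age in weeks nor which libraries came from 1 animal was given. Replicates may therefore share an animal, and p-values measure only the spread between these libraries.

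MMPs are zinc-dependent proteases that are made as inactive proenzymes and cut collagens, laminins, elastin and other extracellular proteins once their prodomain is removed. TIMP proteins bind the active site and block them. In the colon the family is known for tissue remodelling in colitis and at the stroma of tumors, where fibroblasts, macrophages, neutrophils and some epithelial cells are sources. Many secreted MMPs are made on demand after inflammatory signals, and the AP-1 transcription factors (Fos and Jun proteins) are a classical link from such signals to MMP genes.

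The genes of 5 members, Mmp13, Mmp12, Mmp3, Mmp10 and Mmp8, lie together on chromosome 9 in a cluster of 10 MMP genes that spans 427 kb, from 7272514 to 7699585 in GRCm38.p6, the build also called mm10. The other members are spread over chromosome 8 (Mmp2, 92827290 to 92853421), chromosome 2 (Mmp9, 164940326 to 164955850), chromosome 10 (Mmp11, 75923221 to 75932502, minus strand), chromosome 14 (Mmp14, 54431598 to 54442456) and chromosome X (Timp1, 20870166 to 20874737, within the oppositely transcribed Syn1). Syn1 itself was between 0.0404 and 0.792 FPKM (a level per transcript length and per mapped fragment) in the 24 libraries. The RefSeq promoter table held 8 of the 10 members, all but Mmp2 and Mmp9. Of these, 4 carried the AP-1 motif TGANTCA, which reads the same on both strands, within 250 bases upstream of a start site, and the other 4 (Mmp8, Mmp11, Mmp14 and Timp1) had no match in that window. Counted by entry, 4 of the 9 promoter entries of members held the motif, beside 6.75% of all 32851 entries.

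The 4 matching promoters belong to Mmp10, Mmp13, Mmp12 and Mmp3. Among the 9 MMPs chosen here, these had the largest tumor to normal differences in log2(FPKM + 1) with both labels. That order depends on the scale. By ratio of mean FPKM, Mmp10 stayed first, but Mmp8, without a match, lay above Mmp3. The ratio of Mmp8 was 16.1 (WT) and 42.9 (KO), and that of Mmp3 9.56 and 12.4. A link between the motif and the differences was not tested. For each matching promoter, 1 line gives the 110 bases that end just before the start site, plus strand, with the match in capitals.
Mmp3, chr9:7445712-7445821: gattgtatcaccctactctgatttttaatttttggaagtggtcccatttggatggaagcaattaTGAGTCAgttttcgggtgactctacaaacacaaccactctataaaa
Mmp10, chr9:7502232-7502341: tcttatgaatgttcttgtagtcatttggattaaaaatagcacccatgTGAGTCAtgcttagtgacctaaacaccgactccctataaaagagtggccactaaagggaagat
Mmp12, chr9:7347264-7347373: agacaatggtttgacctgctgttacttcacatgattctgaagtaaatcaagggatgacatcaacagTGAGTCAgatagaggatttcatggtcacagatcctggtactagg
Mmp13, chr9:7272404-7272513: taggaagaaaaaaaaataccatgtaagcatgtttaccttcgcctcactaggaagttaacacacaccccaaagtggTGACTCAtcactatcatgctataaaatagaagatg
The first base of the match lay 46 bases before the start site in Mmp3, 63 in Mmp10, 44 in Mmp12 and 35 in Mmp13. For Mmp12 this is the second of its start sites in the table, which lies inside the annotated gene, and the entry for the first start site had no match. On the plus strand Mmp3, Mmp10 and Mmp12 read TGAGTCA, and Mmp13 read TGACTCA, which is the same site seen from the other strand. A match is a description of the letters and not evidence of binding.

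Some facts of the libraries bear on every value below. Relative depth, estimated from low values because fragment totals are unknown, ran from 0.85 to 1.87 of the median library in tumors and from 0.69 to 1.21 in normal tissue. Maf, the gene named in the genotype label, was not lower in libraries labelled KO: it was 2.62 to 7.4 FPKM in KO-labelled and 1.63 to 7.26 FPKM in WT-labelled tumors. The 7.26 FPKM was the WT-old tumor, and the WT-young tumors, at 1.63 to 2.26 FPKM, lay below every KO-labelled tumor. KO and WT are used below only as labels, and no direction is read as an effect of less Maf. KO-8-hetero tumor 2 and WT-young tumor 2 stood apart in summed squamous epithelium markers (Krt5, Krt14, Krt1, Krt10 and Trp63), at 6088 and 835 FPKM, against 3.17 to 24.2 FPKM in the other tumors and 2.70 to 4.95 FPKM in normal tissue. The WT-old tumor stood apart in smooth muscle markers, which summed to 2852 FPKM against 172 to 368 FPKM in the WT-young tumors, and it had the lowest sum of colon epithelium markers of the 14 tumors, 2853 FPKM. It also had the highest sums of macrophage, T cell, and B and plasma cell markers of the 14 tumors, 904, 69.0 and 1406 FPKM. Its Mmp7, an epithelial MMP, was 1.55 FPKM against a tumor median of 427 FPKM. In bulk tissue, a change in the number of cells of a type and a change in RNA per cell cannot be told apart.

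Mmp14 and Mmp2 were the most abundant members in normal tissue, and Mmp10 became the most abundant on average in tumors. Because FPKM is scaled to transcript length, the levels can be set side by side. In the 10 normal libraries the order by mean level was Mmp14 (23.2 ± 5.46 FPKM, SD), Mmp2 (17.6 ± 6.39), Timp1 (4.17 ± 1.80), Mmp3 (2.40 ± 1.37), Mmp13 (2.09 ± 0.928), Mmp10 (1.71 ± 0.819), Mmp11 (1.70 ± 0.774), Mmp9 (1.65 ± 2.93), Mmp12 (0.812 ± 0.470) and Mmp8 (0.0413 ± 0.0564). Between neighbours in that order, only the steps from Mmp2 to Timp1 and from Mmp12 to Mmp8 were larger than both SDs. In the 14 tumors the order was Mmp10 (93.0 ± 69.1 FPKM, SD), Mmp14 (65.3 ± 26.0), Mmp13 (49.9 ± 53.4), Mmp2 (48.2 ± 19.0), Mmp3 (27.8 ± 32.6), Timp1 (22.8 ± 11.7), Mmp12 (10.3 ± 8.57), Mmp9 (6.95 ± 5.28), Mmp11 (3.58 ± 1.28) and Mmp8 (1.52 ± 1.94). There, only the steps from Timp1 to Mmp12 and from Mmp11 to Mmp8 were larger than both SDs.

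The make-up of the summed signal of the 9 MMPs chosen here differed between the tissues. Mmp7 is left out of this sum, although its tumor median alone was 427 FPKM, so the shares are of these 9 only. The 9 MMPs together came to 37.4 to 69.2 FPKM in normal tissue (median 50.1) and to 88.5 to 650.4 FPKM in tumors (median 301.5), so the ranges did not overlap. Mmp2 and Mmp14, which act together because MMP14 at the cell surface activates pro-MMP2, made up 70.9% to 88.2% of that sum in normal libraries and 22.1% to 61.3% in tumors. Mmp10 alone went from 1.47% to 6.01% of the sum in normal tissue to 6.65% to 43.1% in tumors. Mmp10 was the highest member in 7 tumors, Mmp14 in 5, Mmp13 in 1 and Mmp2 in 1, whereas in normal tissue Mmp14 led in 8 libraries and Mmp2 in 2.

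**Figure D1:**
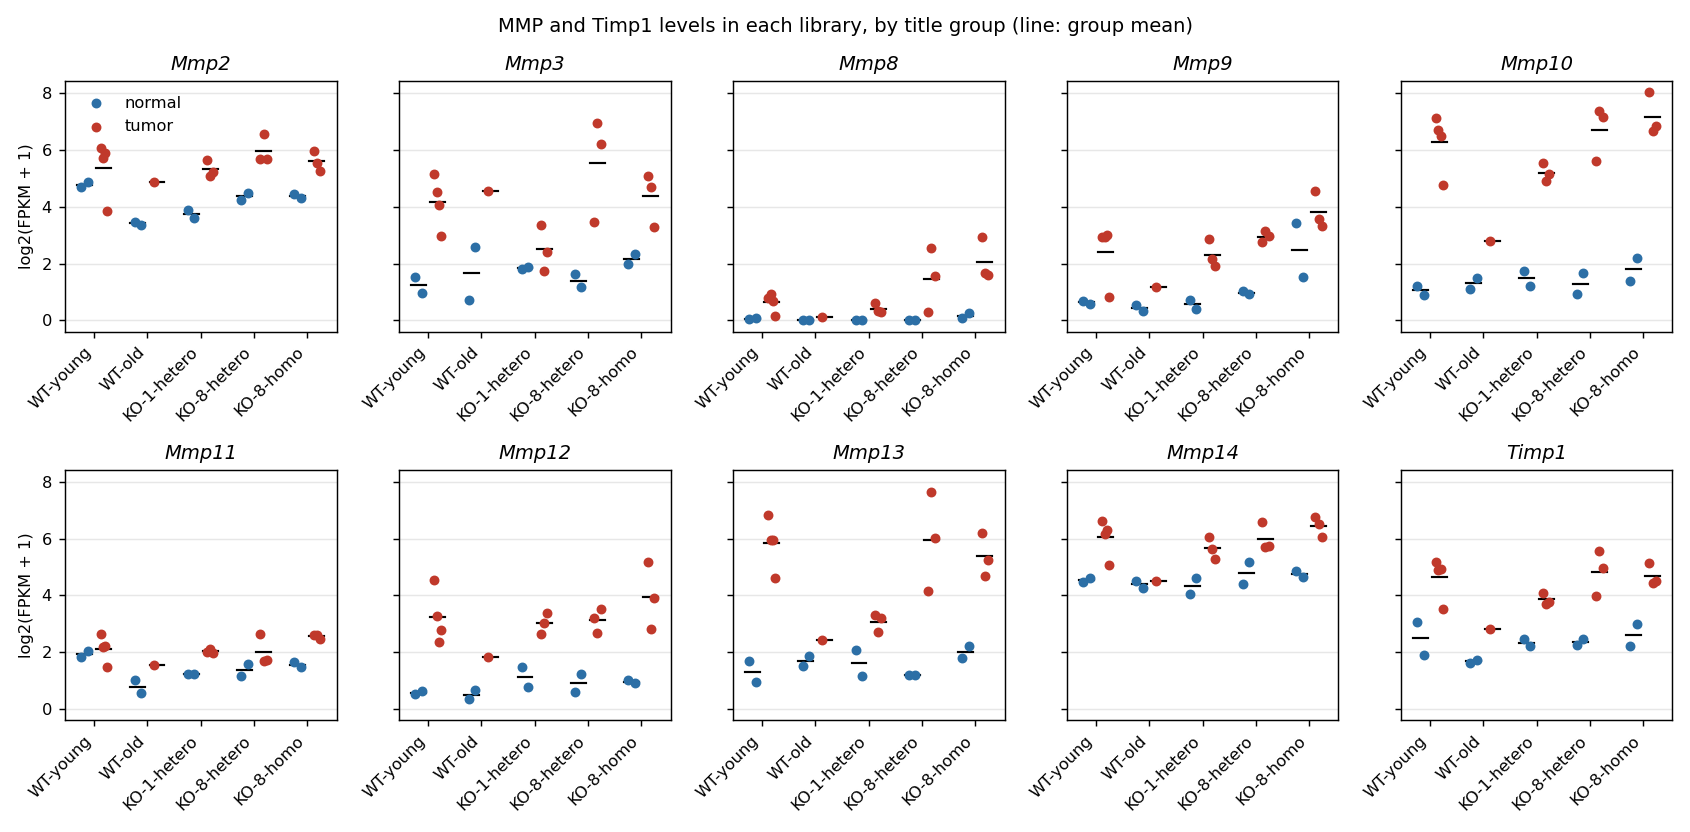
Level of each member in every library as log2(FPKM + 1), by title group; blue points are normal tissue, red points are tumors, and black lines are group means. Tumor points of Mmp10, Mmp12 and Mmp13 all lie above all normal points of the same gene, while the 2 tissues overlap in the other members.

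The question of the largest contrast was which members differ between tumor and normal tissue. All 10 members were higher on average in tumors with either label. With limma on log2(FPKM + 1), 8 of 10 members passed an adjusted p of 0.05 with the WT label, all higher, and 10 of 10 with the KO label, all higher. This contrast is wide: over all 13799 genes tested, 30.4% passed with the WT label (15.5% higher) and 47.2% with the KO label (24.1% higher). The median difference of the members was 1.91 (WT) and 1.86 (KO) on the log2 scale, beside 0.02 and 0.02 for all genes. All 10 members passed the expression filter, but Mmp8 did so only through 5 tumor libraries, all of KO-8-homo or KO-8-hetero, and no normal one. Its differences are therefore given as a description in every comparison; the other 9 members include 8 called for WT and 9 called for KO (medians 2.19 and 2.03).

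Of the stromelysins, broad-range proteases that cut proteoglycans and basement membrane and activate other MMPs, Mmp10 differed most. The KO-1-hetero tumors had Mmp10 at 46.0, 28.8 and 34.7 FPKM, those of KO-8-hetero at 47.3, 167 and 141, and those of KO-8-homo at 259.6, 99.7 and 114. The WT-young tumors had 139, 104, 89.7 and 26.1 FPKM and the WT-old tumor 5.88 FPKM, while the 10 normal libraries ran from 0.863 through a median of 1.48 to 3.55 FPKM. Every tumor thus exceeded every normal library, with the WT-old tumor by far the nearest to them. The difference in log2(FPKM + 1) was 4.40 (SE 0.684, adjusted p = 0.000119, limma) with the WT label and 4.84 (SE 0.538, adjusted p = 9.14e-07) with the KO label, and the ratio of mean FPKM was 56.4 and 52.4.

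Mmp3, the other stromelysin, was much more uneven. Its FPKM was 9.16, 2.36 and 4.35 for the KO-1-hetero tumors, 9.95, 121 and 73.9 for those of KO-8-hetero and 33.3, 25.0 and 8.81 for those of KO-8-homo. WT-young tumors had 35.0, 21.9, 15.8 and 6.92 FPKM and the WT-old tumor 22.3 FPKM, against 0.656 to 5.04 FPKM in normal tissue (median 2.29). KO-1-hetero tumors 2 and 3 lay within the normal range, and the Mmp3 of the WT-old tumor did not share the low level of its Mmp10. The log2 difference was 2.80 (SE 0.760, adjusted p = 0.00834, limma) with the WT label and 2.34 (SE 0.597, adjusted p = 0.00304) with the KO label. Transcripts of Mmp3 and Mmp10 share 140 of their 1752 and 1673 words of 50 bases, the only pair of the 45 member pairs to share any, so part of the reads of either gene may have been assigned to the other. Mmp11, an atypical stromelysin known from the stroma around carcinomas, was low and narrow in range, 1.77 to 5.26 FPKM in tumors (median 3.45) and 0.486 to 3.11 FPKM in normal tissue (median 1.57). Its log2 difference was 0.82 (SE 0.22, adjusted p = 0.00438, limma) with the KO label and 0.65 (SE 0.281, adjusted p = 0.0797) with the WT label, where it passed only without WT-young tumor 4, WT-young normal 1 or 2 or the WT-old tumor (0.77 to 0.88, adjusted p from 0.0283 to 0.0497) and with array weights (1.07).

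The collagenases cut fibrillar collagen. Mmp13, the main interstitial collagenase of mouse stroma, had an FPKM of 8.88, 5.56 and 8.22 for the KO-1-hetero tumors, 16.8, 199 and 64.6 for those of KO-8-hetero and 71.9, 24.7 and 37.5 for those of KO-8-homo. The WT-young tumors had 113, 61.1, 60.2 and 23.3 FPKM, the WT-old tumor 4.39 FPKM, and normal tissue 0.937 to 3.68 FPKM (median 2.04). Tumor and normal ranges did not overlap, but the tumors alone spanned from 4.39 to 199 FPKM. The log2 difference was 3.65 (SE 0.826, adjusted p = 0.00241, limma) with the WT label and 3.19 (SE 0.649, adjusted p = 0.000469) with the KO label. Mmp8, the collagenase stored by neutrophils, was under 1 FPKM in all 5 WT-labelled tumors (0.735, 0.907, 0.611 and 0.106 in WT-young, 0.0839 in WT-old) and at or above 1 FPKM in 5 of 9 KO-labelled ones. The KO-1-hetero tumors stood at 0.521, 0.255 and 0.218 FPKM, those of KO-8-hetero at 0.218, 4.82 and 1.97, those of KO-8-homo at 6.57, 2.14 and 2.06, and normal tissue at 0 to 0.195. On the log2(FPKM + 1) scale, which shrinks such low values, the difference from normal tissue was 1.25 with the KO label and 0.49 with the WT label.

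The gelatinases, which cut denatured collagen and the type of collagen found in basement membranes, differed in where they were high. Mmp9, made largely by neutrophils and macrophages, came to 6.28, 3.46 and 2.77 FPKM for the KO-1-hetero tumors, 5.74, 7.76 and 6.82 for those of KO-8-hetero and 22.5, 10.8 and 9.01 for those of KO-8-homo. WT-young tumors had 6.66, 6.56, 7.0 and 0.788 FPKM, and the WT-old tumor had 1.24 FPKM. Normal tissue was between 0.261 and 1.90 FPKM except for KO-8-homo normal 1, which had 9.87 FPKM and lay above all tumors but KO-8-homo tumors 1 and 2. The log2 difference was 1.63 (SE 0.554, adjusted p = 0.0294, limma) with the WT label and 1.68 (SE 0.436, adjusted p = 0.00333) with the KO label. Mmp2, a product mainly of fibroblasts, was already at 9.29 to 28.2 FPKM in normal tissue (median 18.4) and reached 13.5 to 92.7 FPKM in tumors. Its log2 difference was 1.18 (SE 0.385, adjusted p = 0.0236, limma) with the WT label and 1.47 (SE 0.302, adjusted p = 0.000525) with the KO label. WT-young tumor 4, at 13.5 FPKM, was below both WT-young normal libraries (24.6 and 28.2 FPKM), and without the WT-old libraries the WT-label difference fell to 0.61 (adjusted p = 0.362). Leaving out WT-young tumor 1, 2 or 3 or WT-old normal 1 or 2 also ended the WT-label call of Mmp2 (0.94 to 1.07, adjusted p up to 0.0933). That of Mmp9 ended without WT-young tumor 1, 2 or 3, WT-young normal 2 or WT-old normal 1 or 2 (1.43 to 1.65, adjusted p from 0.0513 to 0.0753).

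The membrane-bound Mmp14 and the macrophage elastase Mmp12 behaved unlike each other in level. Mmp14 was 15.6 to 35.3 FPKM in normal tissue (median 22.7) and 21.8 to 107 FPKM in tumors (median 65.8), and the WT-old tumor, at 21.8 FPKM, lay within the range of its 2 normal counterparts (18.3 and 21.8 FPKM). Its log2 difference was 1.27 (SE 0.347, adjusted p = 0.00888, limma) with the WT label and 1.40 (SE 0.272, adjusted p = 0.000303) with the KO label. The WT-label call of Mmp14 was lost with title groups weighted equally (0.81, adjusted p = 0.0568, limma). It was also lost with same-numbered tumor and normal libraries treated as pairs. Mmp12 was 0.277 to 1.81 FPKM in normal tissue (median 0.644), and its tumor FPKM was 5.29, 7.26 and 9.56 for KO-1-hetero, 8.18, 5.33 and 10.4 for KO-8-hetero and 34.8, 5.99 and 13.9 for KO-8-homo. The WT-young tumors had 22.1, 8.67, 4.10 and 5.80 FPKM and the WT-old tumor 2.57 FPKM, so every tumor was above every normal library. The log2 difference of Mmp12 was nearly the same with both labels, 2.41 (SE 0.443, adjusted p = 0.000495, limma) for WT and 2.37 (SE 0.348, adjusted p = 1.71e-05) for KO.

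Timp1, the inducible inhibitor of secreted MMPs, was higher in tumors along with the proteases. The KO-1-hetero tumors held 16.2, 11.9 and 12.8 FPKM of Timp1, those of KO-8-hetero 14.6, 46.8 and 30.0, and those of KO-8-homo 33.9, 20.8 and 22.0. WT-young tumors had 35.6, 28.6, 29.7 and 10.5 FPKM and the WT-old tumor 5.99 FPKM, while normal tissue had 2.09 to 7.41 FPKM (median 3.69). Only the WT-old tumor fell within the normal range. The log2 difference was 2.18 (SE 0.436, adjusted p = 0.00094, limma) with the WT label and 2.03 (SE 0.343, adjusted p = 7.56e-05) with the KO label. Timp1 is X-linked, and Xist, the RNA of the inactive X, was above 1 FPKM in 6 libraries, all from the hetero groups. These were the normal libraries and tumor 3 of KO-1-hetero and of KO-8-hetero. Timp1 there was 12.8 and 30.0 FPKM in tumors and 3.66 to 4.57 FPKM in normal tissue, within the range of the rest. Xist was thus unevenly spread between tumor and normal tissue with the KO label, and between the labels. The part of this in the member differences was not tested.

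**Figure D2:**
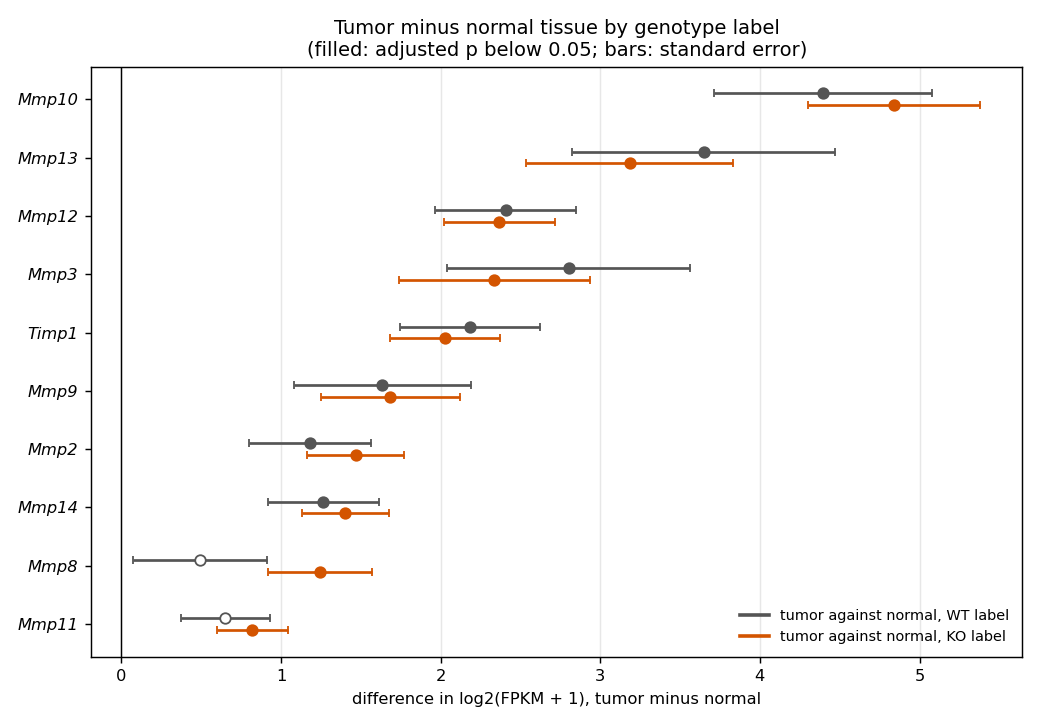
Difference between tumor and normal tissue in log2(FPKM + 1) for each member, with the WT label (grey) and the KO label (orange); bars are standard errors and filled points have an adjusted p below 0.05. Mmp10 is farthest from 0 with both labels, at 4.40 and 4.84, and only Mmp8 and Mmp11 with the WT label are open; Mmp8 entered the test only through KO-8 tumors.

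Ranges of tumor and normal libraries did not overlap for 6 members with the WT label (Mmp3, Mmp8, Mmp9, Mmp10, Mmp12 and Mmp13; 12.3% of all genes were higher in this way) and for 8 with the KO label (all but Mmp3 and Mmp9; 8.48% of all genes). Mmp8 is included in both counts only as a description, because it passed the expression filter only through KO-8 tumors. Over all 24 libraries it held for Mmp10, Mmp12 and Mmp13, beside 3.28% of all genes. Markers of other cell types moved in the same contrast. Of 7 neutrophil markers tested, 4 were called higher in WT-labelled tumors and 5 in KO-labelled ones, and the summed level of the 11 measured was 102 to 725 FPKM in WT-labelled tumors, 27.6 to 226 FPKM in WT-labelled normal tissue, 233 to 2252 FPKM in KO-labelled tumors and 85.9 to 243 FPKM in KO-labelled normal tissue. Of these, Elane was at 0 in every WT-labelled library, and Ngp in every WT-labelled normal one. For macrophage markers, 8 of 10 passed as higher with each label, with sums of 322 to 904 FPKM in WT-labelled tumors, 145 to 270 FPKM in WT-labelled normal tissue, 439 to 857 FPKM in KO-labelled tumors and 186 to 433 FPKM in KO-labelled normal tissue. The 904 FPKM was the WT-old tumor, and the WT-young tumors ran from 322 to 510 FPKM. Of 9 fibroblast markers, 1 passed as higher with the WT label, and 6 as higher and 1 as lower with the KO label; they summed to 305 to 882 FPKM in WT-labelled tumors, 196 to 562 FPKM in WT-labelled normal tissue, 569 to 1190 FPKM in KO-labelled tumors and 352 to 477 FPKM in KO-labelled normal tissue. All 6 smooth muscle markers passed as lower in tumors with both labels. The part of these shifts in the MMP differences was not tested.

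Other genes of the same system were taken from lists. Of 14 further MMP genes, 6 passed the expression filter, and 2 were called higher and 1 lower in tumors with each label (median difference 0.13 with the WT and 0.48 with the KO label, beside 0.02 for all genes with both). Mmp7 (matrilysin), made by epithelial tumor cells and not a member here, had the greatest difference of these, 5.68 (adjusted p = 0.000577, limma) with the WT and 6.44 (adjusted p = 4.79e-06) with the KO label, with WT-labelled means of 3.32 ± 3.12 FPKM (SD, n = 4) in normal tissue and 441.9 ± 264 FPKM (SD, n = 5) in tumors. Mmp19 was also higher, by 1.01 and 0.77, and the membrane-anchored Mmp17 was lower, at -0.93 and -0.96. Of 4 other inhibitors, Timp3, which is held in the matrix, passed with the KO label (0.87, adjusted p = 0.00394; 0.64 and 0.101 with the WT label), and Timp2, Timp4 and Reck passed with neither label (adjusted p from 0.0663 to 0.911). Mean Timp3 was 50.2 ± 13.1 FPKM in KO-labelled tumors and 27.7 ± 9.97 FPKM in KO-labelled normal tissue.

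Of 13 ADAM and ADAMTS proteases tested, relatives of the MMPs that shed cell surface proteins or cut proteoglycans, 6 were higher and none lower with the WT label, and 10 were higher and 1 lower with the KO label (medians 0.56 and 0.76). Adam8, found on leukocytes, differed by 2.74 (WT) and 2.68 (KO), and Adam12 by 1.64 and 1.81. In the plasminogen system, whose product plasmin activates several pro-MMPs, 3 of 5 genes were higher with the WT label and 5 of 5 with the KO label (medians 1.63 and 1.69). Plat differed by 2.37 and 2.24 and the receptor gene Plaur by 1.65 and 1.92. Of 7 cytokine genes known to induce MMPs, 5 were higher with the WT and 7 with the KO label (medians 1.69 and 2.09), among them Il1b (3.44 and 3.48), Tnf (2.28 and 2.09) and Il1a (1.89 and 2.13). AP-1 and related Ets factors were mixed: of 11, 1 was higher and 2 were lower with the WT label and 3 were higher and 2 lower with the KO label (medians -0.04 and 0.17). Jun was higher with the KO label (0.87, adjusted p = 0.00647, limma) and Jund lower with both (-0.84 and -0.80). Of 9 matrix substrates, 3 were higher with the WT and 8 with the KO label, none lower (medians 0.92 and 1.24). Spp1 differed by 3.11 and 3.70 and Col3a1 by 1.43 and 1.38.

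No member differed between KO-labelled and WT-labelled tumors, as a group comparison of 9 with 5 libraries, at an adjusted p of 0.05: 0 of 10 passed in limma, beside 0.00725% of all genes, and 1 member (Mmp8, which entered the test only through KO-8 tumors) had an unadjusted p below 0.05, as did 8.31% of all genes. The differences ran from -0.35 (Mmp13) to 0.85 (Mmp9) on the log2 scale, 8 of them above 0, with adjusted p between 0.555 and 0.976. In normal tissue 0 of 10 passed (0% of all genes; no member had an unadjusted p below 0.05), with differences from 0.02 to 0.80 and an adjusted p of 1 for each. The test of whether the tumor difference depended on the label also gave 0 of 10 (0% of all genes; no member at an unadjusted p below 0.05), with values from -0.47 (Mmp3) to 0.75 (Mmp8). Standard errors of the tumor comparison were 0.233 (Mmp11) to 0.687 (Mmp13), and a p that misses the threshold does not show that the levels were alike. The sign of 6 of these differences turned under some alternative, as listed with the alternatives.

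Each KO-labelled title group was then set against the WT-young tumors, so these contrasts share 4 controls. In KO-1-hetero tumors Mmp13 was lower than in WT-young tumors: 5.56 to 8.88 FPKM against 23.3 to 113 FPKM, with no overlap. The log2 difference was -2.76 (SE 0.611, adjusted p = 0.0285, limma). It was the 1 member of 10 to pass, beside 2.88% of all genes (1.25% lower), and 14.8% of all genes were lower without overlap. The call rested on few libraries: without KO-1-hetero tumor 1, 2 or 3 the adjusted p was 0.103, 0.0662 and 0.098, and without WT-young tumor 1, 2 or 3 it was 0.0704, 0.0693 and 0.0555. Without the 2 tumors high in squamous markers, an alternative added after the data were seen, it was -2.72 (adjusted p = 0.0219; 1.63% of all genes passed).

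The other 9 members did not pass in KO-1-hetero tumors. All were below the WT-young mean, most of all Mmp3 (-1.68, SE 0.706, adjusted p = 0.204), Mmp10 (-1.07, SE 0.506, adjusted p = 0.259) and Timp1 (-0.78, SE 0.395, adjusted p = 0.297), and least Mmp2 (-0.06). The member median was -0.31 beside -0.02 for all genes. Among the listed genes of the same system, the plasminogen activator Plat passed as lower there as well (-1.75, adjusted p = 0.0289). Maf itself was higher (1.12, adjusted p = 0.0172). Marker genes moved too: 3 of 4 B and plasma cell markers (median of the 4, 2.2), 2 of 6 smooth muscle markers (median 2.04) and 1 of 5 T cell markers passed as higher, and 1 of 6 epithelium markers as lower. Smooth muscle markers summed to 701 to 1058 FPKM in KO-1-hetero and 172 to 368 FPKM in WT-young tumors, and fibroblast markers to 569 to 677 and 305 to 882 FPKM. The part of these shifts in the Mmp13 difference was not tested.

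In KO-8-homo tumors no member passed against WT-young tumors. Mmp9 ranged from 9.01 to 22.5 FPKM there and from 0.788 to 7.0 FPKM among WT-young tumors, a log2 difference of 1.39 (SE 0.483, adjusted p = 0.288, limma). Mmp8 ranged from 2.06 to 6.57 FPKM and from 0.106 to 0.907 FPKM, a difference of 1.42 that is a description, since these KO-8-homo values helped to bring it into the test. These were the 2 of 10 members whose ranges did not overlap, beside 9.81% of all genes that were higher in this way, and 0 of 10 members passed beside 0.457% of all genes, with 2 at an unadjusted p below 0.05 (10.1% of all genes). Neutrophil markers summed to 526.3, 776 and 1616 FPKM in KO-8-homo tumors and to 153 to 725 FPKM in WT-young tumors, and their part was not tested. In KO-8-hetero tumors 0 of 10 members passed (0.00725% of all genes). Only Mmp8, which entered the test only through KO-8 tumors, had an unadjusted p below 0.05, as did 6.96% of all genes. The largest difference was that of Mmp3, 1.35 (SE 0.706, adjusted p = 0.707, limma), with KO-8-hetero tumor 2 at 121 FPKM and tumor 1 at 9.95 FPKM.

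**Figure D3:**
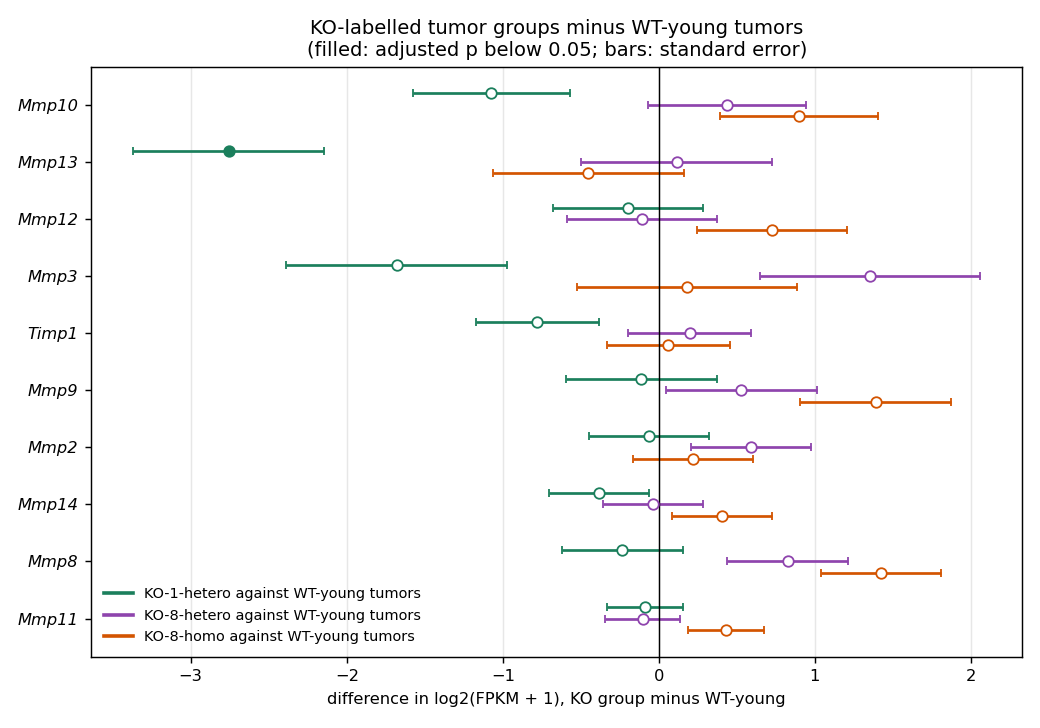
Difference of each KO-labelled tumor group from the WT-young tumors in log2(FPKM + 1), with standard errors; filled points have an adjusted p below 0.05, and the 3 contrasts share the 4 WT-young tumors. The single filled point is Mmp13 in KO-1-hetero at -2.76, and for Mmp3 the KO-1-hetero and KO-8-hetero points lie on opposite sides of 0, at -1.68 and 1.35.

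The 2 groups with the hetero title word were set against each other directly. KO-1-hetero tumors were below KO-8-hetero tumors by a log2 difference of -3.03 (SE 0.755, adjusted p = 0.215, limma) in Mmp3, -2.87 (SE 0.654, adjusted p = 0.213) in Mmp13 and -1.51 (SE 0.541, adjusted p = 0.332) in Mmp10. None of the 10 members passed, as no gene did (0%), and 5 members had an unadjusted p below 0.05, beside 9.88% of all genes. Mmp8 is among these 5 only as a description, because it entered the test only through KO-8 tumors, KO-8-hetero ones among them. The ranges of Mmp2, Mmp3, Mmp10 and Mmp13 did not overlap, beside 7.06% of all genes lower in this way. KO-8-hetero tumor 1 was the nearest to the KO-1-hetero tumors in each of these genes, with Mmp3 at 9.95 FPKM against their highest, 9.16 FPKM, and Mmp10 at 47.3 against 46.0 FPKM. The comparison by zygosity word, KO-8-homo with KO-8-hetero tumors, gave 0 of 10 members (0.0507% of all genes; no member at an unadjusted p below 0.05); only Mmp9 had separate ranges, 9.01 to 22.5 against 5.74 to 7.76 FPKM, beside 4.46% of all genes higher in this way.

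Single tumors carried much of the spread. KO-8-homo tumor 1 was the highest of the 14 tumors in 5 members (Mmp8, Mmp9, Mmp10, Mmp12 and Mmp14), and its neutrophil markers summed to 1616 FPKM. KO-8-hetero tumor 2 was the highest in 4 (Mmp2, Mmp3, Mmp13 and Timp1), and had the highest neutrophil, fibroblast and squamous marker sums, 2252, 1190 and 6088 FPKM. At the other end, the WT-old tumor was the lowest in 6 members and among the lowest 2 in 9 of 10. WT-young tumor 4 was the lowest in Mmp2, Mmp9 and Mmp11 and among the lowest 2 in 7. It had the lowest fibroblast, macrophage, smooth muscle and endothelium marker sums of all tumors, 305, 322, 172 and 14.7 FPKM. Its sum of colon epithelium markers was the highest, 7590 FPKM. The part of this mix in its low member values was not tested. Without the 2 tumors high in squamous markers, 7 members passed with the WT label (25.7% of all genes), Mmp9 being lost (1.45, adjusted p = 0.0777), and 10 with the KO label (45.8% of all genes).

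**Figure D4:**
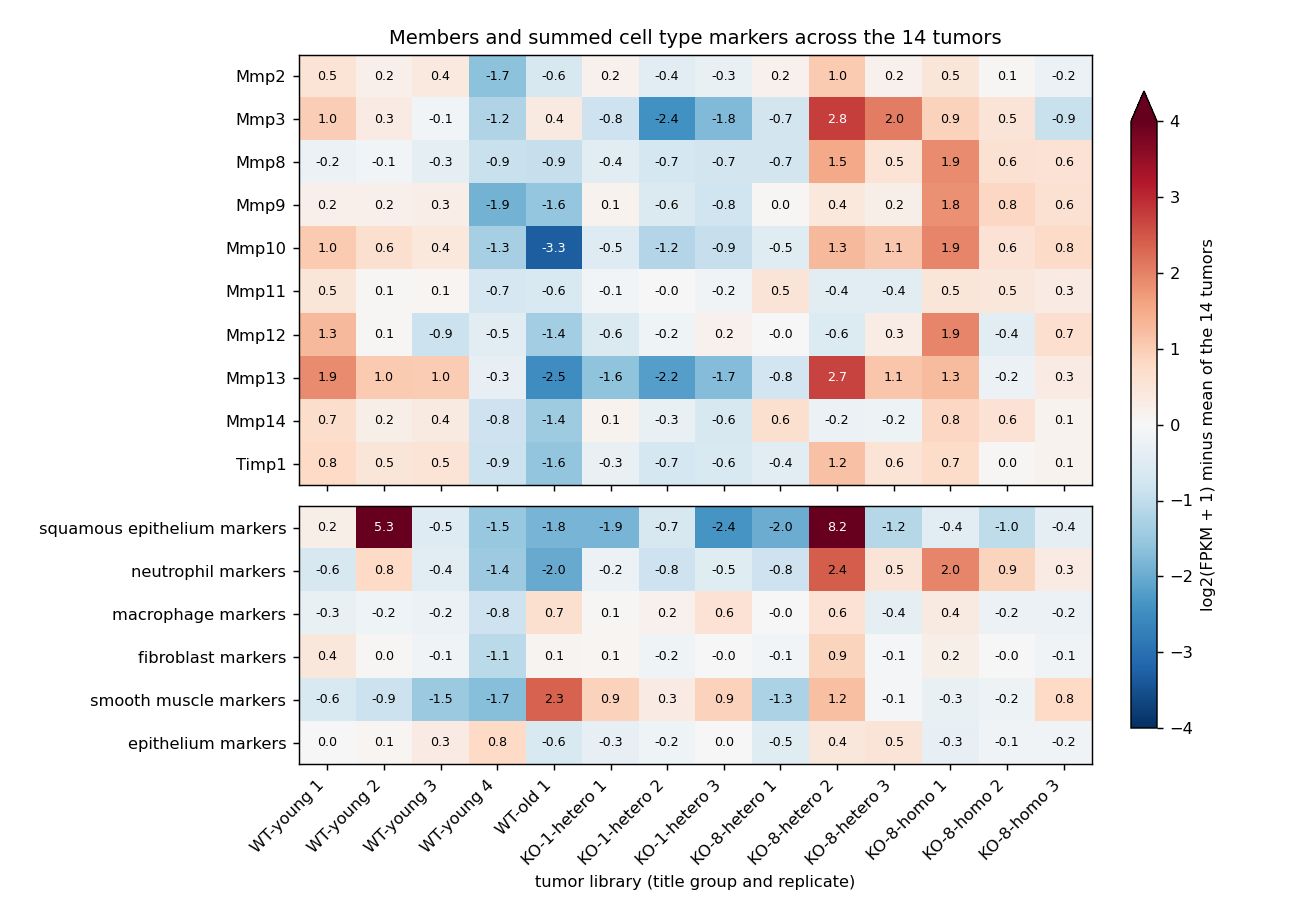
Each member (upper panel) and the summed markers of 6 cell types (lower panel) in the 14 tumors, as log2(FPKM + 1) minus the mean of the 14; red is above and blue below that mean. KO-8-hetero tumor 2 and KO-8-homo tumor 1 hold most of the highest values and WT-young tumor 4 and the WT-old tumor most of the lowest.

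Members varied together across the 14 tumors. Of 45 pairs, 44 had a Pearson r above 0 in log2(FPKM + 1), with a median of 0.63, and 29 passed a permutation test of r after Benjamini-Hochberg adjustment over the 45 pairs (24 for both r and Spearman's rho). The share of pairs among all genes that would pass over these tumors was not computed. The counts are therefore not read as particular to the members. The closest pair by Pearson r was the protease Mmp10 with the inhibitor Timp1, at r = 0.95 and rho = 0.94 (permutation p = 1e-05 for each, the smallest that 100000 permutations can give; adjusted p = 0.00015 and 0.000112). It held without the 2 tumors farthest from the Mmp10 median (r = 0.91) and after subtracting title-group means (r = 0.97). Mmp13 and Timp1 followed with r = 0.93 and rho = 0.95 (permutation p = 1e-05 and 2e-05, adjusted p = 0.00015 for each; r = 0.89 without the 2 farthest tumors and 0.94 within title groups). The stromal members Mmp11 and Mmp14 also ran together, with r = 0.88 and rho = 0.92 (permutation p = 1e-05 and 3e-05, adjusted p = 0.00015 and 0.000193; r = 0.83 and 0.89 in the same checks). By rho, Mmp8 and Mmp9 were as close (rho = 0.95, r = 0.80; permutation p = 1e-05 and 0.00056, adjusted p = 0.000112 and 0.00315), with r = 0.79 without the 2 farthest tumors and 0.59 within title groups.

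Other pairs were loose. Mmp3 and Mmp10, both stromelysins, had r = 0.55 and rho = 0.72 (permutation p = 0.0419 and 0.00428, adjusted p = 0.0628 and 0.0113), with r = 0.45 without the 2 farthest tumors but 0.86 within title groups. Mmp3 and Mmp11 had r = -0.06 and rho = 0.10 (permutation p = 0.827 and 0.726, adjusted p = 0.827 and 0.726; r = 0.13 without the 2 farthest tumors). Timp1 and Mmp14 had r = 0.67 and rho = 0.61 (permutation p = 0.00798 and 0.0226, adjusted p = 0.0198 and 0.0411), and r fell to 0.31 without the 2 farthest tumors and 0.37 within title groups; without the 2 tumors high in squamous markers it was 0.81. All values of a tumor come from 1 library and share its depth and its mix of cells.

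**Figure D5:**
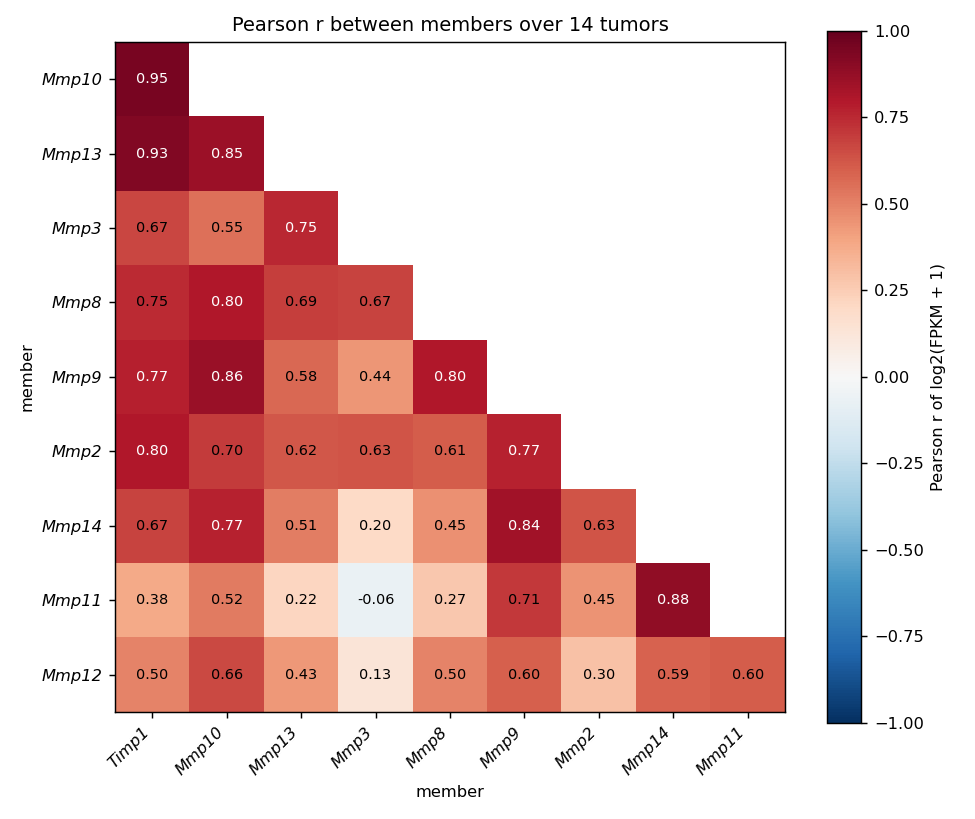
Pearson r of log2(FPKM + 1) between members over the 14 tumors, 1 cell per pair; red is positive and blue negative. The Timp1 column is darkest at Mmp10 (0.95) and Mmp13 (0.93), and the palest cell is Mmp3 with Mmp11 (-0.06).

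The genes whose pattern over the 14 tumors was most like each member, among 13789 others, are given as a description. For Mmp2 they were Col12a1 and Fstl1 (r = 0.97 and 0.96), both matrix proteins made by fibroblasts. For Mmp8 they were Retnlg (0.96), a fixed neutrophil marker here with 0.814 to 77.2 FPKM in tumors, and Chil3 (0.94), a chitinase-like protein of myeloid cells. Mmp10 and Timp1 shared the same nearest gene, Hp (haptoglobin, an acute-phase protein; 0.96 and 0.95), which was 4.03 to 265 FPKM in tumors and 0.898 to 8.20 FPKM in normal tissue. The second genes were Ier3 for Mmp10 (0.95) and Il1rl1, the interleukin-33 receptor, for Timp1 (0.94). Mmp13 was nearest to the integrin chain Itgb1 (0.93) and the activin antagonist Fst (0.92), and Mmp3 to Cdv3 (0.84). Mmp9 was nearest to the basement membrane collagen gene Col18a1 (0.94) and Smim3 (0.94), Mmp14 to Tmem132a (0.97) and Homer3 (0.96), Mmp11 to 2700081O15Rik (0.95) and Tulp3 (0.94), and Mmp12 to Scx (0.89) and C330007P06Rik (0.88). For Mmp12 and Scx, Spearman's rho was only 0.66, the lowest of those given.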

How the data were processed

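RNA was taken with a miRNeasy kit and sequenced from stranded TruSeq mRNA libraries, per the labels' protocols. The authors deposited 1 table of gene symbols with FPKM values per library (24 libraries), per the file headers. TopHat2 2.1.1, Bowtie2 2.2.8, SAMtools 0.1.18, Cuffdiff 2.2.1 and the build mm10 are named in the submitters' processing notes, without role or order. Whether counting used strand is not given in the sources used here.

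Values were transformed as log2(FPKM + 1), which understates changes of low genes, and a gene was tested if 4 or more libraries reached 1 FPKM, which 13799 genes did. limma 3.58.1 (R 4.3.3; lmFit, contrasts.fit, eBayes with trend, two-sided) was run on all 24 libraries with 4 label and tissue groups or with the 10 title groups, and p-values were adjusted over all genes (Benjamini-Hochberg, 0.05). Correlations used 100000 permutations (Python 3.11.15, numpy 2.4.6). The model was tested on simulated data: in the comparison of KO-labelled with WT-labelled tumors over 13799 genes, 79.8% of genes changed by 1 on the log2 scale and 96.2% of those changed by 2 were recovered, with 4.18% false calls. The simulated noise was independent between libraries, and the changed genes were drawn from all genes tested. These shares are therefore not those of the members, whose standard errors reached 0.687 (Mmp13) in that comparison. Fragment totals are unknown, so no counting interval is given.

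All 10 members are named in every comparison. From each of 7 lists (other MMPs, other inhibitors, ADAM and ADAMTS, plasminogen system, cytokines, AP-1 and Ets factors, matrix substrates), up to 4 genes past the threshold in tumor against normal qualified, and a few of these are given. Plat in KO-1-hetero was named after its values were seen. For likeness, up to 2 genes with the highest r per member are given, and some genes that the rules would name are not reported here. The members, the lists and the 9 cell type marker lists were chosen with earlier results of these data known. Of the marker lists whose calls in tumor against normal are not given above, endothelium had 0 of 4 called in tumors with the WT label and 2 higher with the KO label, T cell 0 and 1 higher of 5, B and plasma cell 0 and 0 of 4, epithelium 0 and 1 lower of 6, and squamous epithelium 0 and 0 of 2 tested. Positions, promoters and motif matches come from RefSeq tables of GRCm38.p6. Alternatives tried were another pseudocount, filter, scaling, variance model and weighting, a replicate block, and leaving out libraries.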

Additional observations from a re-analysis of the deposited data

Results flagged for a closer look

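Of 50 combinations of a member and a group of 4 to 9 libraries, 6 held a library that stood apart by Dixon's test at the 95% level, where chance gives about 1 in 20. The test used log2(FPKM + 1). The WT-young tumors were looked at both alone and within the WT-labelled tumors, so the combinations are not independent. Among KO-labelled tumors, Mmp12 in KO-8-homo tumor 1 was 34.8 FPKM and the next highest of the 9 was 13.9 FPKM. Among the 6 KO-labelled normal libraries, 3 values of the KO-8-homo group stood apart. Mmp9 in KO-8-homo normal 1 was 9.87 FPKM with the next at 1.90 FPKM, inside the range of that group's tumors, 9.01 to 22.5 FPKM. In KO-8-homo normal 2, Mmp8 was 0.195 FPKM with the next at 0.0503 FPKM, and Timp1 was 7.0 FPKM with the next at 4.57 FPKM. Among the 4 WT-young tumors, tumor 4 was low in both gelatinases: Mmp2 was 13.5 FPKM with the next at 51.6 FPKM, and Mmp9 was 0.788 FPKM with the next at 6.56 FPKM.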

How the results depend on the processing

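Tumor against normal kept its direction for every member under every alternative run. The count of members called was 6 to 9 with the WT label (8 as reported) and 9 to 10 with the KO label, where the filter of FPKM of at least 5 removed Mmp8 from the test. The share of all genes called moved as well. With the WT label it was 30.4% as reported, 16.2% with same-numbered libraries treated as pairs and 51.8% with array weights. With the KO label these shares were 47.2%, 38.7% and 57.8%. With the WT label, Mmp9 lost its call in 6 of 24 fits that left out 1 library (adjusted p up to 0.0753) and without the WT-old libraries (0.0893), Mmp2 in 5 (up to 0.0933), and Mmp14 with title groups weighted equally (0.81, adjusted p = 0.0568), while Mmp11 passed with array weights (1.07, adjusted p = 0.000763). Upper quartile scaling moved the median of all genes to 0.106 in the KO-label contrast, far below the member differences. Between KO-labelled and WT-labelled tumors, 1 member passed with array weights (Mmp13, -1.44, adjusted p = 0.0333; 17.1% of all genes passed) and 1 with title groups weighted equally (Mmp10, 1.83, adjusted p = 0.018; 5.59%). The sign turned for 6 members there. With array weights the differences were -0.24 for Mmp2, -0.25 for Mmp10, -0.11 for Mmp14 and -0.49 for Timp1; without the WT-old libraries they were -0.0061 for Mmp14 and -0.17 for Timp1; with title groups weighted equally Mmp13 was 0.67. Leaving out 1 library each gave -0.0059 to 0.54 for Mmp2, -0.47 to 0.18 for Mmp3, -1.03 to 0.068 for Mmp13, -0.0061 to 0.52 for Mmp14 and -0.17 to 0.42 for Timp1. In KO-1-hetero against WT-young tumors, 4 members passed with array weights (20.7% of all genes) and 0 to 1 when 1 library was left out (0.109% to 2.53% where it was 0), with Mmp13 between -3.17 and -2.42. KO-8-homo against WT-young gave 1 with array weights (11.5% of all genes) and 0 to 1 without single libraries, KO-8-hetero against WT-young 0 to 1, and KO-1-hetero against KO-8-hetero 0 to 2; without KO-8-hetero tumor 1, where these were 1, 1 and 2, 0.565%, 1.75% and 0.196% of all genes passed, and the first was also 1 without KO-8-hetero tumor 2 (0.529%). The cause was not tested. Correlations of same-numbered tumor and normal deviations were -0.159 to 0.355. With 2 normal libraries per group, whose deviations mirror each other, this cannot show whether the numbers pair libraries. The replicate block turned Timp1 between labelled tumors to -0.024 (adjusted p = 0.997, limma), and a block within the title groups left Mmp14 with the WT label at 1.23 (adjusted p = 0.0638, limma). Fragment totals are unknown, which limits what can be said of Mmp8 and other values under 1 FPKM.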
